A study of Sus scrofa with 8 samples.

Results

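FRZB, 5 further secreted Wnt antagonist genes (SFRP1, SFRP2, SFRP4, SFRP5 and WIF1), the ligand gene WNT9A, the feedback gene AXIN2 and the transcription factor genes LEF1 and TCF7L2 were examined in the right ventricle of the pig, Sus scrofa. These 10 of 30550 genes in the table were found by gene name. The set was chosen on results of the same contrast, in which FRZB and WNT9A had stood out, so their differences between the groups are described here without a test. RNA was sequenced in 4 libraries from pigs heterozygous for a PKP2 knockout (PKP2_het, the heterozygotes) and 4 from wild-type pigs (WT). PKP2 encodes plakophilin 2, a desmosomal protein, and the series presents these pigs as modelling arrhythmogenic cardiomyopathy. The sources used here do not give the breed, age or sex, nor whether each library is a separate animal, so p-values measure only the spread between these libraries, which may be technical.

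Wnt proteins are secreted lipid-modified ligands that bind frizzled receptors and LRP5 or LRP6 on the cell surface. In the canonical branch, dishevelled proteins then inhibit the complex of axin, APC and GSK3 that marks beta-catenin for destruction, and stabilised beta-catenin acts with TCF and LEF factors on target genes. The secreted frizzled-related proteins, to which the FRZB product belongs, carry a cysteine-rich domain like that of frizzled receptors and bind Wnt ligands outside the cell. Desmosomal proteins and beta-catenin meet at the intercalated disc of heart muscle cells, and the pathway has long been studied in this disease.

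The libraries held 23637697 to 31313628 fragments assigned to genes. PKP2 itself was at 45.4, 40.7, 24.6 and 45.9 FPKM (fragments per kilobase of gene length, scaled by library) in PKP2_het replicates 1 to 4 and at 52.9, 62.2, 61.1 and 72.8 FPKM in WT replicates 1 to 4, so the groups did not overlap and their order was that of the labels, although the gene was not called (limma adjusted p = 0.164). PKP2_het replicate 3 stood apart. Mitochondrial transcripts made up 52.1% of its fragments, against 21.1% to 37.6% in the other 7 libraries. The labels name cardiomyocytes as the cell type. Ventricular muscle markers such as MYH7 and MYL2 summed to between 25493 and 34677 FPKM per library, but fibroblast markers summed to 297 to 614 FPKM and endothelial markers to 245 to 557 FPKM, so the libraries also contained RNA of other cell types. In such tissue fewer cells of a type and less RNA per cell cannot be told apart.

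FRZB, also known as secreted frizzled-related protein 3, was lower in every heterozygous library than in any WT library. The gene (gene 100152419) lies on the minus strand of chromosome 15 of Sscrofa11.1, from 88332856 to 88377275, and no other annotated gene overlapped it. Its level was 51.3, 28.7, 75.2 and 34.8 FPKM in WT replicates 1 to 4 and 2.22, 9.66, 6.35 and 6.80 FPKM in PKP2_het replicates 1 to 4. The lowest WT library thus lay above the highest PKP2_het library, and PKP2_het replicate 3 was not at the edge of its group. The mean was 47.5 ± 20.8 FPKM in wild type and 6.26 ± 3.06 FPKM in the heterozygotes (SD, n = 4), a 7.59-fold difference that left the PKP2_het mean at 13.2% of the WT mean. On the scale of log2(FPKM + 1), which understates changes of low values, the difference was -2.77 with a standard error of 0.39.

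These FRZB values rested on many fragments. Between 2247 and 6243 fragments were assigned to FRZB in the WT libraries and between 161 and 730 in the PKP2_het libraries. FRZB was among the more abundant transcripts of WT tissue, at rank 567 to 1440 of all genes, and at rank 3714 to 8531 in heterozygous tissue. Leaving out 1 library at a time gave folds between 6.12, without WT replicate 3, and 9.28, without PKP2_het replicate 2. Groups without overlap stay so when a library is left out, so overlap was not examined in these 8 settings. FRZB also varied widely within groups, 2.62-fold between the lowest and highest WT library and 4.34-fold within PKP2_het. Its within-group SD of 0.67 on the log2(FPKM + 1) scale was larger than that of 98.4% of the genes tested.

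**Figure D1:**
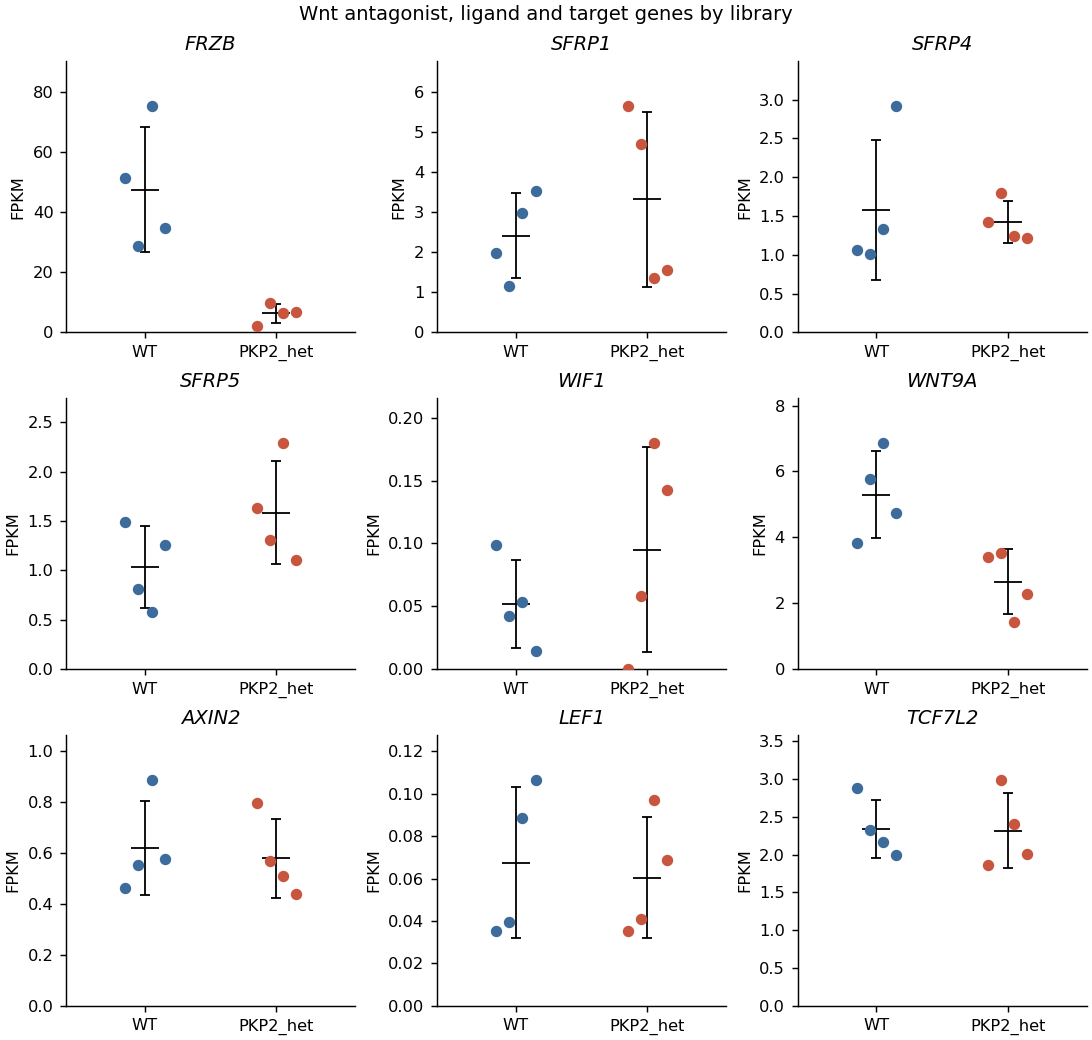
FPKM (vertical axes, linear from 0) of 9 genes in each WT (blue) and PKP2_het (red) library; each point is 1 library, the horizontal tick the mean and the bar the SD of 4 libraries. FRZB and WNT9A are the genes whose groups do not overlap, with FRZB at 28.7 to 75.2 FPKM in WT and 2.22 to 9.66 FPKM in PKP2_het; SFRP2, listed at 0 in all 8 libraries, is not drawn.

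SFRP1, which shares the frizzled-like domain with FRZB, was at 1.98, 1.16, 2.99 and 3.54 FPKM in WT replicates 1 to 4 and at 5.65, 4.72, 1.37 and 1.56 FPKM in PKP2_het replicates 1 to 4. PKP2_het replicates 1 and 2 lay above every WT library and replicates 3 and 4 within the WT range, so the groups overlapped. The means were 3.32 ± 2.18 FPKM in the heterozygotes and 2.42 ± 1.06 FPKM in wild type (SD, n = 4), with a difference of 0.25 ± 0.37 (SE) on the log2(FPKM + 1) scale. Without PKP2_het replicate 1 this difference was -0.01, so 1 library decided its sign.

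SFRP4, a secreted antagonist of the same family, was at 1.07, 1.01, 1.33 and 2.91 FPKM in WT replicates 1 to 4 and at 1.42, 1.80, 1.24 and 1.22 FPKM in PKP2_het replicates 1 to 4. WT replicate 4 was the highest library of all and the remaining WT libraries overlapped with PKP2_het. The difference was -0.04 ± 0.20 (SE) on the log2(FPKM + 1) scale, and 0.18 without WT replicate 4. SFRP5, which lies on chromosome 14 as TCF7L2 does, was at 1.49, 0.812, 0.581 and 1.26 FPKM in wild type and at 1.64, 1.31, 2.29 and 1.10 FPKM in the heterozygotes, in the order of the replicates. The SFRP5 means were 1.58 ± 0.521 FPKM in the heterozygotes and 1.03 ± 0.412 FPKM in wild type (SD, n = 4). PKP2_het replicates 1 and 3 lay above every WT library, but replicates 2 and 4 did not, and the difference was 0.35 ± 0.18 (SE) on the log2(FPKM + 1) scale. Only 22 to 64 fragments per library were assigned to SFRP5.

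WIF1 and SFRP2 were close to or at the limit of detection. WIF1 encodes Wnt inhibitory factor 1, which binds Wnt ligands through a domain unlike that of frizzled receptors. It had 5, 3, 4 and 1 fragments in WT replicates 1 to 4 and 0, 4, 10 and 9 fragments in PKP2_het replicates 1 to 4, so a difference between the groups was not detectable at this depth. A count of 0 in PKP2_het replicate 1 allows up to 3 fragments, or 0.0457 FPKM, for counting error only. SFRP2 was listed at 0 in all 8 libraries. For SFRP2, 3 fragments would be 0.0463 to 0.0687 FPKM depending on the library. PCOLCE, a collagen-processing gene of fibroblasts, was listed at 0 in all 8 libraries too, and whether either zero reflects the annotation used for counting was not tested.

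Because FPKM values are scaled by gene length, the 6 antagonists could be summed within each library. The sum was 56.0, 31.7, 80.2 and 42.6 FPKM in WT replicates 1 to 4 and 10.9, 17.5, 11.4 and 10.8 FPKM in PKP2_het replicates 1 to 4. FRZB supplied 81.8% to 93.8% of it in the WT libraries. In PKP2_het replicate 1 it supplied 20.3%, and in the other PKP2_het libraries 55.1% to 62.8%. The sum of the other 5 antagonists was 6.42 ± 2.23 FPKM in the heterozygotes and 5.08 ± 1.95 FPKM in wild type (SD, n = 4), with overlapping groups. FRZB was chosen on this contrast and made up most of the WT sum, so the difference in the total restates that of FRZB.

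**Figure D2:**
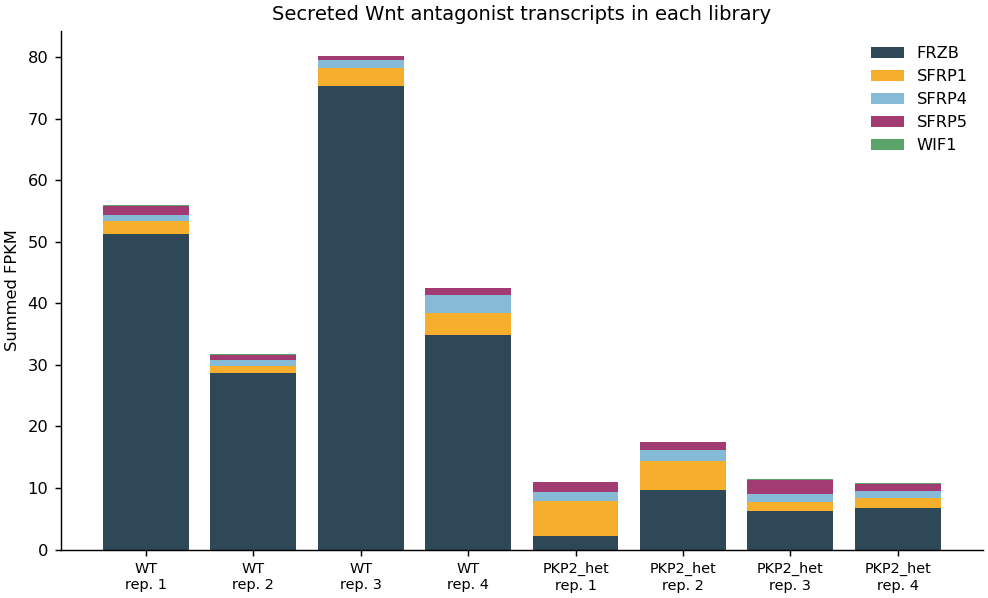
Summed FPKM (vertical axis, linear from 0) of 5 secreted Wnt antagonist genes in each of the 8 libraries, stacked by gene; SFRP2 is listed at 0 and adds nothing. The bars reach 31.7 to 80.2 FPKM in WT and 10.8 to 17.5 FPKM in PKP2_het, and FRZB (dark) makes up 81.8% to 93.8% of the WT bars.

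WNT9A, a Wnt ligand gene, was also lower in every heterozygous library than in any WT library. The gene (gene 100512949) lies on the minus strand of chromosome 2, from 51102757 to 51128346. It was at 3.82, 5.76, 6.86 and 4.74 FPKM in WT replicates 1 to 4 and at 3.40, 3.53, 1.42 and 2.27 FPKM in PKP2_het replicates 1 to 4. The gap was narrow, with WT replicate 1 close above PKP2_het replicate 2, and PKP2_het replicate 3 was the lowest library. The mean was 5.30 ± 1.31 FPKM in wild type and 2.66 ± 1.00 FPKM in the heterozygotes (SD, n = 4), or 50.2% of the WT mean, with a difference of -0.80 ± 0.22 (SE) on the log2(FPKM + 1) scale. Without PKP2_het replicate 3 the WT mean was 1.73 times the PKP2_het mean, against 1.99 times with it, and the difference was -0.62.

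AXIN2, a negative regulator that the pathway itself induces and that is widely read as a marker of its activity, was at 0.462, 0.554, 0.887 and 0.578 FPKM in WT replicates 1 to 4. In PKP2_het replicates 1 to 4 it was at 0.795, 0.568, 0.510 and 0.441 FPKM. The groups overlapped almost completely, and the means were 0.578 ± 0.154 FPKM in the heterozygotes and 0.620 ± 0.185 FPKM in wild type (SD, n = 4). Each library had 53 to 151 AXIN2 fragments. AXIN2 overlaps CEP112 on the same strand, and CEP112 was at up to 0.790 FPKM.

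TCF7L2, a transcription factor that partners beta-catenin, was at 2.88, 2.33, 2.16 and 1.99 FPKM in WT replicates 1 to 4 and at 1.87, 2.99, 2.40 and 2.01 FPKM in PKP2_het replicates 1 to 4. The means were 2.32 ± 0.502 FPKM in the heterozygotes and 2.34 ± 0.384 FPKM in wild type (SD, n = 4), and the difference was -0.01 ± 0.13 (SE) on the log2(FPKM + 1) scale. LEF1, the related factor best known from lymphocytes and hair follicles, was scarce, at 0.0353 to 0.107 FPKM in wild type and 0.0351 to 0.0969 FPKM in the heterozygotes. It had 7 to 29 fragments per library, with the groups overlapping. TCF7L2 and LEF1 are each overlapped by uncharacterised genes on the opposite strand, and it is not given whether the counting used strand.

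In order of mean level in wild type, FRZB came first at 47.5 FPKM, followed by WNT9A at 5.30, SFRP1 at 2.42, TCF7L2 at 2.34, SFRP4 at 1.58, SFRP5 at 1.03, AXIN2 at 0.620, LEF1 at 0.0676 and WIF1 at 0.0521 FPKM. The libraries of FRZB, WNT9A and SFRP1 did not overlap with each other in wild type, whereas SFRP1, TCF7L2, SFRP4 and SFRP5 overlapped from each gene to the next, as did LEF1 and WIF1. In PKP2_het the order began with FRZB at 6.26, SFRP1 at 3.32 and WNT9A at 2.66 FPKM, and these 3 overlapped. FRZB was the most abundant of the 10 genes in all 4 WT libraries and in 3 of 4 PKP2_het libraries. In PKP2_het replicate 1 both SFRP1 and WNT9A exceeded it.

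Of the 10 genes, 6 had at least 1 FPKM in at least 4 libraries and entered the fit of all genes (limma on log2(FPKM + 1), Benjamini-Hochberg adjusted p threshold 0.05). FRZB, SFRP1, SFRP4, SFRP5, WNT9A and TCF7L2 entered it, and AXIN2, LEF1, WIF1 and SFRP2 did not. FRZB was the 1 gene called, lower in the heterozygotes. Over all 10757 genes tested, 1.86% were called, and 0.707% were called as lower. The groups did not overlap for 2 of the 6, FRZB and WNT9A, both lower in the heterozygotes. Of all genes tested 9.19% had groups without overlap, 4.33% lower and 4.86% higher. The median difference of the 6 was -0.03, and that of all genes tested was -0.02. FRZB and WNT9A were in the set because of this contrast, so nothing is read from these counts.

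The rest of the pathway was read from 9 lists by role with 103 genes, of which 102 were in the table and 51 entered the fit. In limma 1 of the 51 was called as higher in the heterozygotes, DVL2, and 0 as lower, against 1.15% and 0.707% of all genes. At an unadjusted p under 0.05, 1 was higher and 4 were lower, together 9.80% of the 51, against 12.8% of all genes tested. The voom fit on recovered fragments also called 1 higher and 0 lower, with 4 lower at an unadjusted p under 0.05. Against 9.19% of all genes tested, 5 of the 51, or 9.80%, had groups without overlap, so nothing is read from the lack of overlap of single genes below. Negative differences outnumbered positive ones, 38 against 13, and the median was -0.08. Of all genes tested 54.3% had a negative difference. With equal FPKM sums, which moved the median of all genes from -0.02 to -0.23, 45 of the 51 and 85.2% of all genes were negative. Without PKP2_het replicate 3 the negative share of the 51 was 60.8%, and 48.5% of all genes.

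DVL2, one of 3 dishevelled genes that relay the signal from frizzled receptors, rose in heterozygous tissue. It was at 7.71, 6.80, 7.63 and 7.08 FPKM in WT replicates 1 to 4 and at 12.3, 14.3, 19.0 and 11.8 FPKM in PKP2_het replicates 1 to 4. All 4 PKP2_het libraries lay above all 4 WT libraries, with replicate 3 the highest. The means were 14.3 ± 3.295 FPKM in the heterozygotes and 7.30 ± 0.439 FPKM in wild type (SD, n = 4), with a difference of 0.86 ± 0.15 (SE) on the log2(FPKM + 1) scale and a limma adjusted p of 0.0162. Without PKP2_het replicate 3 the difference was 0.73 (limma adjusted p = 0.00472). The call was lost in 5 of 16 alternative settings, with limma adjusted p-values between 0.00472 and 0.710 over all of them. With libraries rescaled to equal FPKM sums the DVL2 difference was 0.62, where the median of all genes was -0.23. The differences of the other dishevelled genes were 0.10 ± 0.12 (SE) for DVL1 and -0.03 ± 0.11 for DVL3, the latter named after its values were seen, and whether DVL2 differs from them was not tested.

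Among the other transducers, CTNNB1 (beta-catenin) was at 60.4, 61.6, 67.6 and 67.4 FPKM in WT replicates 1 to 4 and at 58.0, 56.1, 32.3 and 62.3 FPKM in PKP2_het replicates 1 to 4. Its difference was -0.34 ± 0.20 (SE), with a limma adjusted p of 0.526, and it was -0.13 without PKP2_het replicate 3, the lowest library. GSK3A, a kinase of the destruction complex, had a difference of -0.17 ± 0.15 (SE), and of -0.04 without PKP2_het replicate 3. In this list 12 of 15 genes were tested, 1 was called as higher, 0 were called as lower and 10 had a negative difference.

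Ligand genes other than WNT9A were mostly scarce. Of 17 listed, 2 entered the fit and 0 were called by limma or had an unadjusted p under 0.05. WNT5B, the most abundant of them, was at 2.59 ± 0.305 FPKM in the heterozygotes and 2.48 ± 0.744 FPKM in wild type, and WNT11, a non-canonical ligand of heart development, at 1.56 ± 0.200 and 1.71 ± 0.103 FPKM (SD, n = 4). WNT5A was at 0.544 ± 0.269 FPKM in the heterozygotes and 0.669 ± 0.215 FPKM in wild type (SD, n = 4), below the filter. WNT7A, WNT7B, WNT8B and WNT10A were listed at 0 in all libraries. WNT9B, the nearest relative of WNT9A, was at 0.0828 to 0.252 FPKM in the heterozygotes and 0.0330 to 0.520 FPKM in wild type; it was in none of the lists and was added after its values were seen. With 6.86 FPKM at most, WNT9A had the highest mean of the Wnt ligand genes given here in WT tissue, whereas its PKP2_het mean of 2.66 FPKM was close to the 2.59 FPKM of WNT5B.

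Of the 2 genes of ligand release, WLS, which carries Wnt proteins to the cell surface, was at 2.26 ± 0.321 FPKM in the heterozygotes and 2.83 ± 0.159 FPKM in wild type (SD, n = 4). Its groups did not overlap, and its limma adjusted p was 0.345, with an unadjusted p under 0.05. PORCN, which attaches the lipid to Wnt proteins, was at 0.978 ± 0.310 and 0.746 ± 0.182 FPKM and did not enter the fit.

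Receptor genes showed small differences of mostly negative sign, and 0 of 10 tested were called by limma, with 2 at an unadjusted p under 0.05. These were FZD8 and FZD6, named after their values were seen. FZD8 was at 7.06, 5.36, 5.41 and 5.29 FPKM in WT replicates 1 to 4 and at 4.14, 5.11, 4.16 and 4.25 FPKM in PKP2_het replicates 1 to 4, without overlap, and its limma adjusted p was 0.261. FZD6 had a difference of -0.38 ± 0.15 (SE) and a limma adjusted p of 0.303. The abundant LRP5, a co-receptor, was at 22.2 ± 1.84 FPKM in the heterozygotes and 24.5 ± 1.69 FPKM in wild type (SD, n = 4), FZD4 at 11.6 ± 2.45 and 12.7 ± 1.40 FPKM, and FZD7 at 8.88 ± 3.75 and 8.72 ± 1.68 FPKM. Of the 10 tested, 9 had a negative difference and 1 a positive one. The 9 include FZD1 at -0.002 and FZD2 and RYK at -0.02, named after their values were seen. Over 16 alternative settings FZD4 ran from -0.39 to 0.01 and FZD7 from -0.28 to 0.26, so the sign of both depended on the setting.

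Extracellular inhibitors outside the frizzled-related family had 0 calls among 5 tested in limma and 1 at an unadjusted p under 0.05. That 1 was IGFBP4, an insulin-like growth factor binding protein that also blocks frizzled and LRP6, at 24.4 ± 3.38 FPKM in the heterozygotes and 30.6 ± 3.56 FPKM in wild type (SD, n = 4; limma adjusted p = 0.343). DKK1, which blocks LRP5 and LRP6, was at 2.67 ± 2.48 and 3.43 ± 1.23 FPKM. DKK3, a divergent member of the dickkopf family, was at 37.1, 12.4, 4.32 and 4.10 FPKM in PKP2_het replicates 1 to 4 and at 2.31, 4.10, 26.3 and 3.09 FPKM in WT replicates 1 to 4. The highest libraries of DKK3 came from both groups, and its difference of 0.72 ± 0.78 (SE) was within the spread. It was 0.11 without PKP2_het replicate 1 and 1.40 without WT replicate 3. IGFBP4 was the inhibitor of this list nearest to FRZB in wild type, where the libraries of both genes overlapped, and in the heterozygotes it was above FRZB in all 4 libraries.

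R-spondins, which amplify Wnt signals, were hardly detected, at a mean of 0.0495 FPKM or less in each group. LGR4, a receptor for them, was at 2.22 ± 0.0676 FPKM in the heterozygotes and 1.94 ± 0.346 FPKM in wild type (SD, n = 4). RNF43 and ZNRF3, ligases that remove frizzled receptors and are themselves targets of the pathway, were at 0.901 ± 0.340 and 0.935 ± 0.283 FPKM in the heterozygotes and at 0.962 ± 0.212 and 0.903 ± 0.0859 FPKM in wild type, below the filter.

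Target genes had 0 calls among 5 tested in limma, with 0 at an unadjusted p under 0.05. NKD2, an inhibitor of dishevelled, was at 33.1 ± 2.53 FPKM in the heterozygotes and 38.8 ± 2.75 FPKM in wild type (SD, n = 4), without overlap and with a limma adjusted p of 0.423. CCND1 (cyclin D1) was at 26.2 ± 5.01 and 28.7 ± 5.74 FPKM and ID2, an inhibitor of helix-loop-helix factors, at 6.82 ± 1.93 and 5.77 ± 3.05 FPKM. NKD1, the close relative of NKD2, was too low for the fit, at 0.417 ± 0.0450 FPKM in the heterozygotes and 0.259 ± 0.0876 FPKM in wild type (SD, n = 4). Its groups did not overlap either, but in the opposite direction, and it was named after its values were seen.

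Nuclear cofactors had 0 calls among 9 tested in limma and 0 at an unadjusted p under 0.05. PYGO2, a beta-catenin coactivator, had a difference of -0.03 ± 0.09 (SE), the corepressor TLE2 0.24 ± 0.14 and the coactivator BCL9L -0.29 ± 0.17. Without PKP2_het replicate 3 the TLE2 difference was 0.12 and that of BCL9L -0.12. In the planar polarity branch, which does not use beta-catenin, 6 of 6 tested genes had a negative difference, limma called 0 of them and 0 were under an unadjusted p of 0.05. SCRIB was at -0.04 ± 0.13 (SE), PRICKLE2 at -0.36 ± 0.21 and DAAM1 at -0.25 ± 0.16. PRICKLE2 was at -0.16 and DAAM1 also at -0.16 without PKP2_het replicate 3, and DAAM1 at -0.13 without WT replicate 3. SCRIB turned positive without PKP2_het replicate 1, at 0.06, or WT replicate 4, at 0.01, so the count of 6 rested on single libraries.

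**Figure D3:**
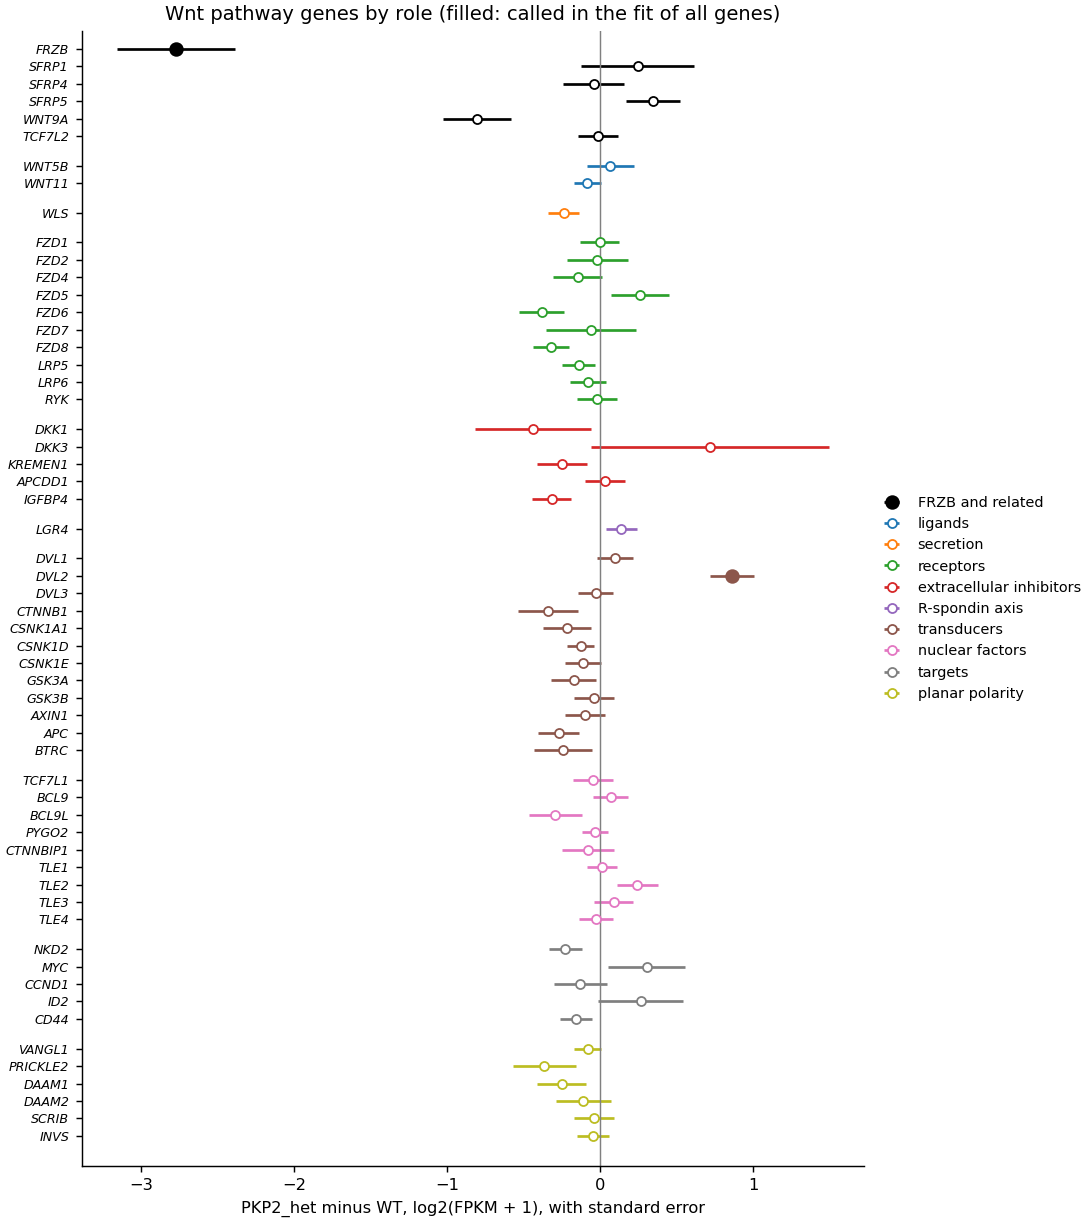
Difference PKP2_het minus WT in log2(FPKM + 1), with its standard error, for the 6 genes of the FRZB set that entered the fit (black, top) and 51 other Wnt pathway genes grouped by role (colours); filled points were called by limma. FRZB at -2.77 and DVL2 at 0.86 are the filled points, and 38 of the 51 other genes lie left of 0.

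The genes next to FRZB and WNT9A were examined to see whether their levels differed too; this comparison was added after the table was seen and takes the 2 nearest named coding genes on each side. Around FRZB, DNAJC10 lay 76.5 kb before it and NCKAP1 48.6 kb after it. DNAJC10 was at 14.0 ± 4.07 FPKM in the heterozygotes and 15.4 ± 1.01 FPKM in wild type (SD, n = 4; limma adjusted p = 0.738), and NCKAP1 at 13.7 ± 2.69 and 16.03 ± 0.916 FPKM (limma adjusted p = 0.560). The next genes outward, PDE1A and DUSP19, had differences of -0.001 and -0.17 on the log2(FPKM + 1) scale. All 4 neighbours of FRZB had overlapping groups.

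Around WNT9A the pattern was mixed. SNAP47, which encodes a SNARE-related protein and lies 181 kb before WNT9A, was at 1.01, 0.124, 0.147 and 1.24 FPKM in WT replicates 1 to 4 and at 2.59, 2.43, 1.30 and 2.68 FPKM in PKP2_het replicates 1 to 4. Every PKP2_het library was above every WT library, but SNAP47 was not called (limma adjusted p = 0.0872). PRSS38, which lies between SNAP47 and WNT9A, was at 0.136 to 0.229 FPKM in wild type and 0.00830 to 0.104 FPKM in the heterozygotes. It had only 18 to 31 fragments per WT library and 1 to 11 per PKP2_het library, and did not enter the fit. WNT3A was at or near 0. ARF1, a small GTPase of the Golgi 91.3 kb after WNT9A, was at 37.0 ± 4.24 FPKM in the heterozygotes and 37.9 ± 0.876 FPKM in wild type (SD, n = 4).

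**Figure D4:**
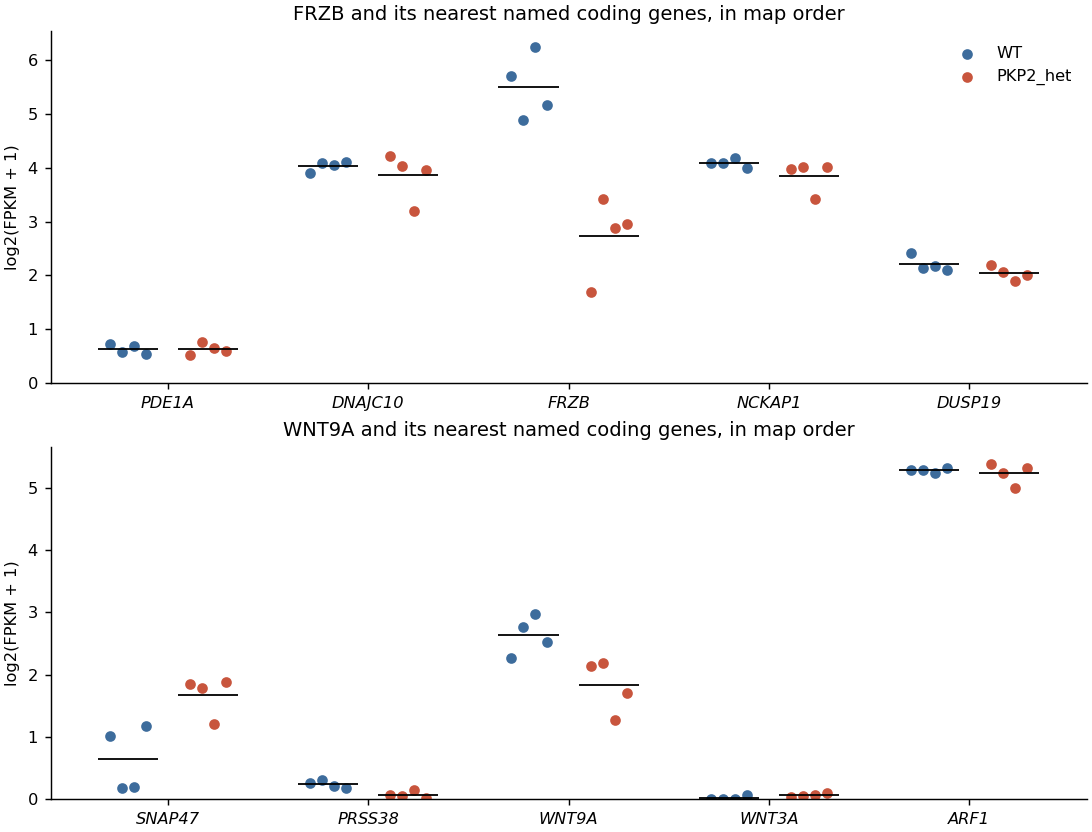
log2(FPKM + 1) (vertical axes) of FRZB (top) and WNT9A (bottom) and the 2 nearest named coding genes on each side, in chromosome order with no scale of distance; points are libraries (WT blue, PKP2_het red) and lines group means. The groups do not overlap for FRZB, WNT9A, SNAP47 and PRSS38, and SNAP47 lies higher in PKP2_het whereas the other 3 lie lower. PRSS38 was too low to enter the fit.

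Cell type markers gave a further view of the libraries in which FRZB was low. Fibroblast markers such as DCN (decorin), COL3A1 and MFAP5 summed to 297 to 614 FPKM in the heterozygotes and 323 to 419 FPKM in wild type, with overlapping groups, and 0 of 11 tested were called in limma, with 1, MFAP5, at an unadjusted p under 0.05 and higher in the heterozygotes. Per 1000 FPKM of these markers, FRZB stood at 159, 75.3, 179.7 and 84.7 FPKM in WT replicates 1 to 4. In PKP2_het replicates 1 to 4 it stood at 4.96, 15.7, 21.4 and 18.9 FPKM. FRZB was chosen on this contrast and the marker sums overlapped, so the gap in this ratio largely restates that of FRZB. The part of fibroblast content in the FRZB levels was not tested. Markers of valve, tendon and cartilage cells summed to 9.83 to 15.96 FPKM in the heterozygotes and 8.73 to 11.8 FPKM in wild type, mostly FMOD (fibromodulin), with 0 calls among 1 tested. COMP and EPYC were at 0 and ACAN, COL2A1 and TNMD at or near 0, and the part of such cells in the FRZB result was not tested.

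Of 15 marker lists, 0 passed the exact two-sided permutation test after adjustment over the lists, and 2 had an unadjusted p under 0.05. These were skeletal muscle markers, at 1.83 to 5.43 FPKM in the heterozygotes and 7.09 to 57.0 FPKM in wild type, and conduction system markers, at 21.3 to 27.9 FPKM and 18.1 to 19.1 FPKM. Each had an exact p of 0.0286, the smallest that 70 relabellings can give, and an adjusted p of 0.214. At this smallest p, 9 of the 15 lists would have to reach it together for any to pass, so the count of 0 says little. Neither pair of groups overlapped, as for FRZB, and the part of these cells in the FRZB result was not tested. In the skeletal muscle list MYL1, a fast myosin light chain, made up most of the sum, at 5.47 to 55.2 FPKM in wild type, and was the 1 call among 2 tested. MYBPC2 and TNNC2, the next most abundant, had differences of -0.12 and 0.03, and the myosin heavy chains MYH1, MYH2 and MYH4 were at or near 0. Per library, the skeletal muscle sum was 33.5, 18.0, 7.09 and 57.0 FPKM in WT replicates 1 to 4, where FRZB was at 51.3, 28.7, 75.2 and 34.8 FPKM. In the conduction list limma called 0 of 3 tested, with 1 (IRX3) at an unadjusted p under 0.05. IRX3, at 13.7 to 20.2 FPKM in the heterozygotes and 12.2 to 14.5 FPKM in wild type, led it, with TBX3 and TBX18 next, and HCN4 was at or near 0.

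By the pattern over all 8 libraries, the genes most like FRZB among tested genes with a symbol were BTBD3, FARP1, DENND6A, PPIP5K2 and TMEM62, with Pearson correlations in log2(FPKM + 1) of 0.96, 0.96, 0.95, 0.95 and 0.95. After subtraction of the group means the same 5 had correlations with FRZB of 0.79, 0.75, 0.62, 0.84 and 0.56. These are descriptions over 8 libraries that share the group difference, and their differences between groups were small beside that of FRZB. BTBD3 was at 2.06 ± 0.1004 FPKM in the heterozygotes and 3.20 ± 0.472 FPKM in wild type, and PPIP5K2 at 5.71 ± 0.758 and 8.17 ± 1.148 FPKM (SD, n = 4). For WNT9A the closest were SYT17, PPP1R3B, INPP5F, SOX12 and TARS2, at 0.99, 0.99, 0.98, 0.98 and 0.98. With the group means subtracted these were 0.99, 0.97, 0.96, 0.96 and 0.94, and PKP2_het replicate 3 had the lowest WNT9A level. These genes were picked for their correlation over the same libraries, so nothing is read from its size.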

How the data were processed

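The authors deposited FPKM values for 30550 genes. HISAT2 2.0.5 served as the aligner, per the submitters' processing notes; the counting program, annotation and scaling were not given in the sources used here. Gene starts and ends equalled those of the RefSeq table of Sscrofa11.1 for 30335 genes. Multiplied by gene length, 100% of the values fell on whole steps of their library within 0.01 fragments, so fragments per gene were recovered.

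Values were compared as log2(FPKM + 1) with limma 3.58.1 (R 4.3.3), with a variance trend and no replicate term, for 10757 genes that reached 1 FPKM in 4 or more of 8 libraries, two-sided, adjusted over all of them (Benjamini-Hochberg, 0.05). Summed marker levels were compared with exact permutation tests (scipy 1.17.1). List genes were matched by symbol (238 of 245) or protein annotation (3); 4 had no match.

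The genes, lists and tests were chosen with earlier results of these data known. Named genes follow a fixed rule: the 10 genes of the set, PKP2, every other Wnt gene called, the 3 most abundant genes of each list described, and the 5 genes most correlated with FRZB or WNT9A; exceptions are marked. Alternatives covered pseudocounts of 0.1 and 0.5, filters, scalings, voom on recovered fragments, a replicate block and leaving out each library.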

Additional observations from a re-analysis of the deposited data

Results flagged for a closer look

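Dixon's ratio (95% level) was used to find libraries distant from the 3 others of a group, and it picks about 1 group in 20 by chance. It picked 9 of the 96 groups examined. SFRP4 was at 2.91 FPKM in WT replicate 4, against 1.01 to 1.33 FPKM in the other WT libraries. The summed secreted antagonists were at 17.5 FPKM in PKP2_het replicate 2, against 10.8 to 11.4 FPKM. FZD4 was at 7.93 FPKM in PKP2_het replicate 1, against 12.5 to 13.2 FPKM, and IGFBP4 at 29.5 FPKM in PKP2_het replicate 3, against 22.6 to 22.9 FPKM. ID2 was at 10.3 FPKM in WT replicate 1, against 3.62 to 4.71 FPKM. WT replicate 3 stood out for DAAM1, at 5.68 FPKM against 3.61 to 3.80 FPKM, and for DKK3, at 26.3 FPKM against 2.31 to 4.10 FPKM. Atrial muscle markers summed to 1169 FPKM in WT replicate 3, against 11.9 to 33.0 FPKM in the other WT libraries, and to 656 FPKM in PKP2_het replicate 1, where the 3 other heterozygous libraries had 14.9 to 120.7 FPKM.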

How the results depend on the processing

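Over 16 alternative settings the FRZB difference ran from -3.02 to -2.42 and the WNT9A difference from -1.03 to -0.62; both genes were chosen on this contrast, so these ranges are descriptions and support nothing. Rescaling libraries to equal FPKM sums moved the median of all genes tested from -0.02 to -0.23; FRZB was then at -3.02. With equal sums 50 genes were called higher and 45 lower, against 124 and 76, and with the replicate block 66 and 39; 0 other Wnt genes were called in either of these fits, so the DVL2 call was lost (limma adjusted p = 0.710 and 0.0605). Leaving out 1 library gave 75 to 195 genes higher, 40 to 119 lower, and 0 to 1 other Wnt genes higher; DVL2 lost its call without PKP2_het replicate 2 (limma adjusted p = 0.0557), WT replicate 2 (0.0665) or WT replicate 4 (0.0650), and the cause was not tested. The replicate block pairs libraries by number only: deviations of same-numbered libraries correlated at -0.39, 0.03, -0.23 and 0.20, and PKP2_het replicate 3 correlated best with WT replicate 1 (0.46), so the numbers do not show a pairing. Low counts limit WIF1, LEF1 and SFRP5; with a pseudocount of 0.1 the WIF1 and LEF1 differences moved to 0.28 and -0.05, and with voom SFRP5 moved to 0.67. In 8 settings with 1 library left out the permutation test of marker lists cannot go below 0.0571.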

Other observations

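DKK3 and the atrial muscle markers were high in the same libraries. PKP2_het replicate 1 and WT replicate 3 had the highest summed atrial markers, at 656 and 1169 FPKM, and the highest DKK3 levels, at 37.1 and 26.3 FPKM. The atrial myosin light chain MYL7 was at 243 FPKM in PKP2_het replicate 1 and 1026 FPKM in WT replicate 3, and at 2.30 to 27.2 FPKM in the other 6 libraries. WNT9B was also highest in these libraries, at 0.252 and 0.520 FPKM, on 36 and 85 fragments. FRZB was lowest in the first of them, at 2.22 FPKM, and highest in the second, at 75.2 FPKM. The pattern was noticed after the values were seen, in 8 libraries, and was not tested.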
